A study of Mus musculus with 8 samples.

Results

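The 9 genes described here encode amino acid transporters of the cell surface that cells are known to raise under stress: Slc7a11, Slc7a5, Slc3a2, Slc7a1, Slc7a3, Slc38a2, Slc1a4, Slc1a5 and Slc6a9. They were taken by symbol from a table of 44343 genes, all 9 were found, and all 9 passed the filter on low values (a mean of at least 10 normalized counts over the libraries). RNA was sequenced from mouse beta cells, the insulin-producing cells of the pancreatic islet. Every mouse carried MipCreER, in which an insulin promoter limits a Cre recombinase activated by tamoxifen to beta cells, and R26R-EYFP, which makes recombined cells fluoresce. Both Adar alleles were floxed in the mice of the 4 KO libraries. In the mice of the 4 Het libraries 1 Adar allele was floxed and the other was wild type, so the controls also received Cre, tamoxifen and the loss of 1 allele. Tamoxifen was given at 1 month of age as 2 doses of 8 mg, and fluorescent cells were sorted 7 days later. Adar encodes an enzyme of double-stranded RNA that turns adenosine into inosine, and the study asked what underlies the islet inflammation seen after its loss. The number of mice behind a library is not given in the labels. The p-values therefore rest on how far libraries of a group lay apart, which may be technical in part.

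Amino acid shortage, misfolded protein in the endoplasmic reticulum and double-stranded RNA activate kinases that phosphorylate the translation factor eIF2alpha. Most translation then slows while the transcription factor ATF4 is made, and ATF4 with partners of the C/EBP family activates genes of amino acid synthesis and uptake. Beta cells make large amounts of protein, and amino acids such as arginine and leucine are known to stimulate insulin secretion in them.

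Libraries held 5.37 to 15.9 M reads. KO 3 stood apart in mitochondrial reads, with 17.4% against 6.90% to 10.4% elsewhere. By Xist and the Y-linked Ddx3y, Het 1 was of male cells and KO 3 and KO 4 of female cells, while the other 5 libraries held both. Values are normalized counts as deposited, that is reads divided by 1 size factor per library. Under this scaling abundant genes (those whose mean was 200 or more) were high in KO 1 and KO 2 as a whole, their median lying at 0.88 and 0.96 log2 units relative to the average of the libraries, and low in KO 3 and KO 4, at -0.77 and -0.56. A second set of values was therefore used, in which reads were scaled by trimmed-mean (TMM) factors of these abundant genes, called abundant-gene scaling here. This choice was made after these levels were seen. It shifted the log2 fold change of the median gene tested from 0.05 to -0.18, and the share of called genes that were higher in KO from 97.5% to 74.3%. Olfactory and vomeronasal receptor genes, which beta cells are not known to use, took 0.0342% to 0.315% of reads, least in KO 2 and most in KO 3. All 10 beta cell markers had reads in every library and together took 9.33% to 11.8% of reads in Het and 3.68% to 10.7% in KO. Adar itself was at 744 to 1187 in Het and 615 to 4030 in KO, but a count over the whole gene does not measure the floxed part and leaves the labels unchecked.

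Slc7a11, which imports cystine, was higher in KO beta cells after abundant-gene scaling, at 2.24-fold the Het level, with the groups apart. Slc7a3, a transporter of arginine and lysine, was the 1 member called higher under the deposited scaling, at a low level. The subunits of the leucine transporter (Slc7a5 and Slc3a2), the arginine transporter Slc7a1, the glutamine and neutral amino acid carriers Slc38a2, Slc1a4 and Slc1a5, and the glycine transporter Slc6a9 were not called. Of 9 members limma called 1 higher and 0 lower under the deposited scaling (adjusted p under 0.05), where 0.921% and 0.0233% of the 21498 genes tested were called higher and lower. The members counted 2 higher and 0 lower at an unadjusted p below 0.05, against 4.05% and 2.7% of all genes. After abundant-gene scaling it called 1 higher, Slc7a11, and 0 lower, against 1.14% and 0.395% of all genes, and at an unadjusted p below 0.05 the members counted 2 and 0, against 7.29% and 6.07%. The 6 members that are abundant genes were also tested with the other abundant genes only. Slc7a11 was the 1 called higher (limma adjusted p = 0.0240) and 0 were lower, where 6.03% and 4.24% of genes were called. On leaving out each library that adjusted p ran from 0.00519 to 0.0812, with no call without Het 1, Het 2, Het 3, KO 1 or KO 4. Slc7a11 entered this set only through its KO values, with means of 101 in Het and 319 in KO, so this call is no separate support. Tests on whole reads also called Slc7a11 higher and 0 members lower. Its adjusted p was 0.0394 by edgeR, where 0.673% and 0.0343% of 23320 genes were called higher and lower. By DESeq2 it was 0.0303, where 0.476% and 0.00677% were. The DESeq2 shares are over all 44343 genes, those with few reads included, so they cannot be set directly beside the others. The median log2 fold change was 0.40 over the 9 members, and 0.16 after abundant-gene scaling, with 7 of 9 positive in both. Over the 21498 genes tested the medians were 0.05 and -0.18, with 11678 and 7631 positive. Abundant genes, to which 6 of the 9 members belong, had a median of -0.002 after that scaling.

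Which members were called under the deposited scaling depended on the KO libraries used. Against KO 1 and KO 2 only, 8 members were called higher and 0 lower, while 45.5% and 16.1% of all genes were. With the 5 libraries of both sexes, among them KO 1 and KO 2 but neither of the others, the counts were again 8 and 0, beside 39.4% and 11.1%. Against KO 3 and KO 4 only, 0 members were called higher and 1 lower, Slc7a1, beside 1.27% and 7.45%. With ordinary TMM scaling 0 were called in either direction, beside 0.637% and 0.0372%, and at an unadjusted p below 0.05 the counts were 2 and 0, beside 5.34% and 3.1%. No member's groups were free of overlap under the deposited scaling, against 2.19% of genes with KO above and 0.893% with KO below.

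Divided by exon length, the levels of the 9 genes fell into a high, a middle and a low set. Slc3a2 and Slc7a5 stood at 437 and 441 normalized counts per kilobase of exon in Het (means of 4 libraries), and which of them was higher differed between libraries. Slc7a1 followed at 151 and Slc38a2 at 121, in that order in 4 of 4 Het libraries but in 6 of all 8. Slc1a4 stood at 64.0 and lay in the fifth place in every library. Slc6a9 at 11.9 and Slc7a11 at 7.24 came next, in that order in 4 of 4 Het libraries and reversed in all 4 KO libraries. Slc1a5 at 5.38 and Slc7a3 at 3.38 were lowest, again in that order in Het and reversed in KO. Together the members took 0.0703% of reads in Het 2 to 0.0798% in Het 3, and 0.0579% in KO 3 (95% exact binomial interval 0.0559% to 0.0600%) to 0.111% in KO 1 (0.109% to 0.113%).

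**Figure D1:**
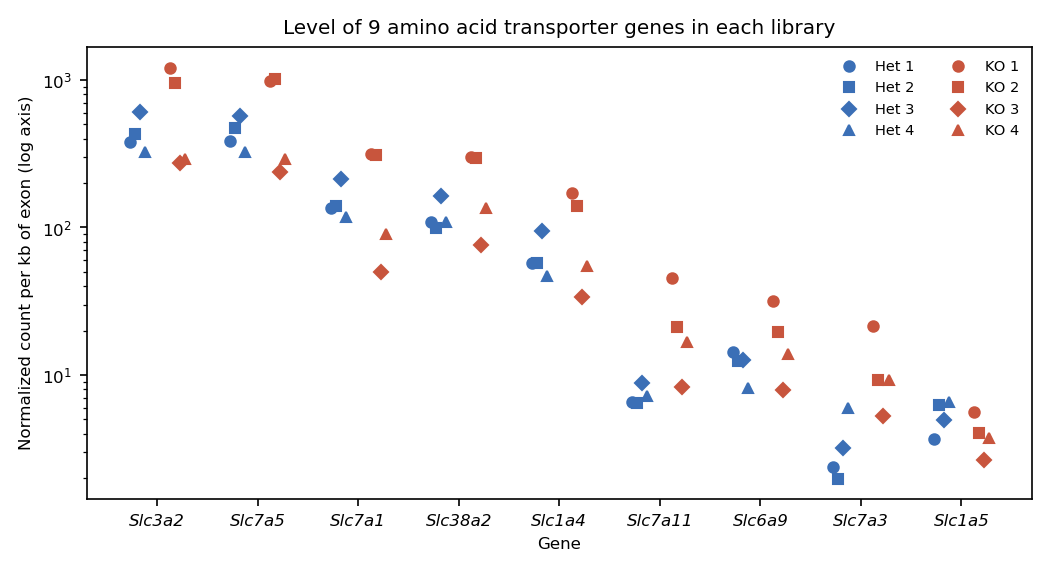
Normalized count per kilobase of exon (log axis) of each transporter gene in each of the 8 libraries, Het in blue and KO in red, ordered by the mean over all libraries. Slc3a2 and Slc7a5 lie highest, and Slc7a11 and Slc7a3 are the genes that change places with a neighbour in all 4 KO libraries.

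Slc7a11 (ENSMUSG00000027737, chromosome 3, 49892526 to 50443614, minus strand, mm10) encodes xCT, the light chain of the exchanger that brings in cystine and releases glutamate. Cystine supplies cysteine for glutathione. Its normalized count was 91.0, 90.0, 123 and 99.7 in Het 1 to 4 and 631, 296, 116 and 232 in KO 1 to 4. KO 1 was highest, and KO 3 lay below Het 3, so the groups overlapped under this scaling. The means were 101 ± 15.1 in Het and 319 ± 221 in KO (SD, n = 4 each). This difference of 1.40 ± 0.45 log2 units (SE) did not pass (limma adjusted p = 0.136), and on leaving out each library the adjusted p ran from 0.00468 without KO 3, the 1 case that passed, to 1.00 without KO 1, where the difference was 0.99.

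After abundant-gene scaling Slc7a11 stood at 110, 91.8, 107 and 140 in Het 1 to 4 and at 352, 156, 203 and 351 in KO 1 to 4. All 4 KO libraries were then above all 4 Het libraries, as for 5.47% of all genes tested under this scaling. The difference was 1.16 ± 0.26 log2 units (SE, limma adjusted p = 0.0474), and an exact two-sided permutation test of the 8 values gave p = 0.0286, the smallest that 70 arrangements allow. On leaving out single libraries the adjusted p no longer passed without Het 1 (0.139), Het 2 (0.167), Het 3 (0.127), Het 4 (0.0588), KO 1 (0.174) or KO 4 (0.103), while the fold change stayed between 1.00 and 1.39. Against KO 1 and KO 2 only it was 1.07 (adjusted p = 0.0131). There 4.08% of all genes were called higher and 35.6% lower, and their median was -0.46. Against KO 3 and KO 4 only the fold change was 1.26 (adjusted p = 0.0113). There the shares were 2.27% and 1.69% and the median 0.37. Among abundant genes alone Slc7a11 was called against KO 3 and KO 4 only, but not against KO 1 and KO 2 only. Slc7a11 is in that gene set only through its KO values, so this call is no separate support. The comparisons with each pair of KO libraries used the same Het libraries, so they are not independent of each other. With all 8 libraries the fold change relative to the median of all genes tested was 1.35 under the deposited scaling. After abundant-gene scaling it was 1.34. A change of factors moves all genes alike, so these values are equal by construction apart from the pseudocount. Beta cell markers took their smallest shares of reads in KO 1 and KO 4, 3.68% and 4.21%, the libraries where Slc7a11 was highest. The insulin gene Ins2 alone held 53.0% to 67.1% of these reads. Without it the shares in KO 1 and KO 4 were 1.73% and 1.88%, again the lowest. The markers did not all move alike. By normalized count as deposited in KO 4, Mafa, Nkx6-1, Pdx1 and G6pc2 lay inside the Het range and the other markers below it. Abundant genes as a whole were low in that library, at -0.56 log2 units. In KO 1, where they were high, at 0.88, Mafa, Nkx6-1 and Pdx1 lay above the Het range. Iapp, Slc30a8 and G6pc2 lay inside it there, and Ins1, Ins2, Ucn3 and Slc2a2 below it. The part of marker levels in the result for Slc7a11 was not tested.

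The share of Slc7a11 among the reads of the 9 members does not depend on any scaling between libraries. It was 1.59%, 1.46%, 1.40% and 1.98% in Het 1 to 4 and 3.99%, 2.07%, 3.38% and 4.72% in KO 1 to 4. KO 2 was the lowest KO library, with a 95% exact binomial interval of 1.81% to 2.35%, and Het 4 the highest Het library, with 1.65% to 2.35%. These 2 libraries therefore differ by less than their counting error, although the groups do not overlap. Intervals cover counting error only. The share of Slc7a1 was 27.0% ± 0.78 in Het and 21.5% ± 3.57 in KO (SD, n = 4 each), with every KO library below every Het library. Shares of the 9 members sum to 100%, so they are not independent of each other.

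The promoter of Slc7a11 is shown because it holds the sequence to which ATF4 and C/EBP proteins are known to bind. RefSeq windows from 250 bases before to 50 after the start site (GRCm38.p6) were matched by symbol for 6 of the 9 members, and Slc7a5, Slc7a3 and Slc1a5 had no window. The core TGATGNAA was searched on both strands. It occurred in 3.97% of all 32851 windows, and 2 or more matches occurred in 0.070%. The window of Slc7a11 held 2 matches in opposite directions, and that of Slc1a4 held 1. The windows of Slc3a2, Slc7a1, Slc38a2 and Slc6a9 held none, and the longer form TGATGNAAT, which contains the core and occurred in 0.965% of windows, was in none of the members' windows. The core TGACNNNGC of the antioxidant response element, bound by NRF2, was in windows of Slc7a1, Slc38a2 and Slc6a9 and in 12.4% of all windows. Below, capitals mark matches to TGATGNAA or its reverse complement, the Slc7a11 stretch ends 1 base before the start site (chr3:50443614-50443763, minus strand), and the Slc1a4 stretch ends with base 4 of the transcript (chr11:20332710-20332773, minus strand).
Slc7a11: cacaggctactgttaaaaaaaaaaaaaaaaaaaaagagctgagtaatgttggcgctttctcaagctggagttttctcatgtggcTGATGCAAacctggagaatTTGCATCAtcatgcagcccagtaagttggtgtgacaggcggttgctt
Slc1a4: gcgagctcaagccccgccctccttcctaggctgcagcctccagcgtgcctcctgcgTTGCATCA
The matches in Slc7a11 begin 66 and 47 bases before the start site. A match describes the letters only, and binding was not measured here.

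Slc7a3 (chromosome X, 101079210 to 101086020, minus strand) encodes CAT3, a carrier of cationic amino acids. The gene is X-linked, and the sexes of the libraries were not balanced between the groups. Its reads were few, 7, 6, 14 and 28 in Het 1 to 4 and 90, 27, 18 and 59 in KO 1 to 4. The normalized counts were 8.97, 7.50, 12.0 and 22.7 in Het and 80.7, 34.9, 19.9 and 35.1 in KO. Het 4 lay above KO 3, and the other KO libraries lay above all Het libraries. The difference was 1.60 ± 0.43 (SE) on the log2(value + 1) scale (limma adjusted p = 0.0203), and the exact two-sided permutation test gave p = 0.0571.

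The call of Slc7a3 rested on the deposited scaling and on the spread that limma shares between genes of like level. Its adjusted p was 0.328 after abundant-gene scaling (log2 fold change 1.37 ± 0.59, SE), 0.391 with ordinary TMM scaling, 0.189 without limma's trend and robust settings, 0.451 by edgeR and 0.0834 by DESeq2. Under the deposited scaling it was 0.211 without Het 1, 0.306 without Het 2, 0.0648 without Het 3 and 0.653 without KO 1. In KO 1 and KO 2 Slc7a3 stood 1.71 and 0.46 log2 units above the Het mean after abundant-gene scaling, and in KO 3 and KO 4 1.35 and 1.95 above it.

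**Figure D2:**
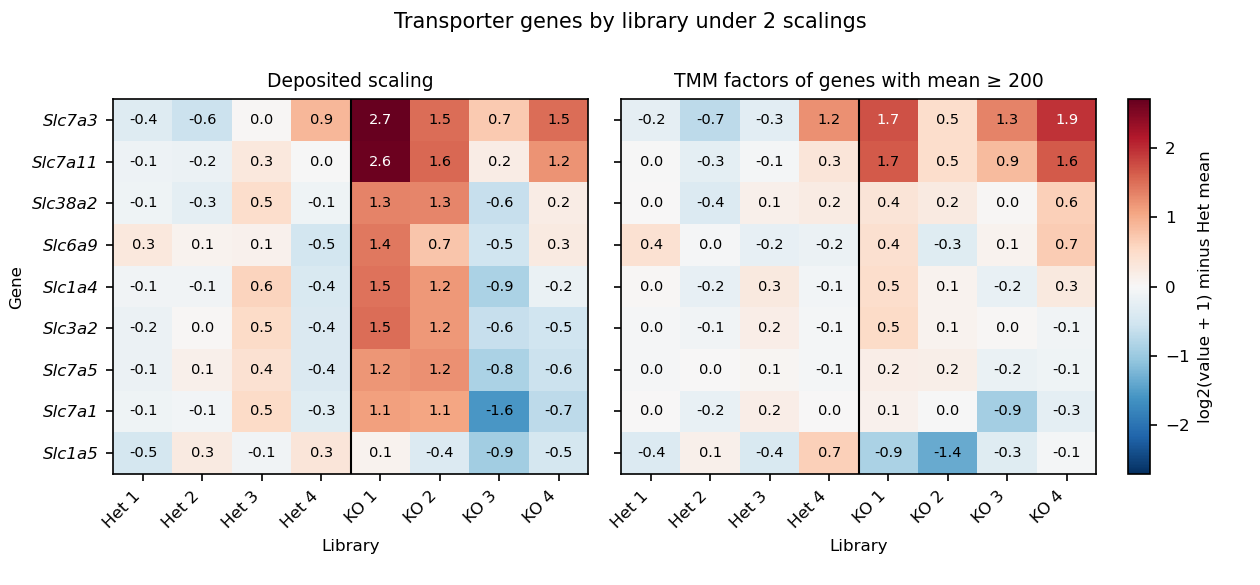
Log2(value + 1) of each transporter gene (rows) in each library (columns) minus the mean of the 4 Het libraries, under the deposited scaling (left) and after abundant-gene scaling (TMM factors of genes whose mean was 200 or more, right). On the left most genes are high in KO 1 and KO 2 and low in KO 3, and on the right Slc7a3 and Slc7a11 are above the Het mean in all 4 KO libraries.

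Slc3a2 (chromosome 19, 8706882 to 8723369, minus strand) encodes CD98, the heavy chain that carries light chains such as xCT and LAT1 to the cell surface. Its normalized count was 1341, 1524, 2158 and 1139 in Het 1 to 4 and 4291, 3369, 973 and 1026 in KO 1 to 4. KO 1 and KO 2 lay above all Het libraries and KO 3 and KO 4 below them, which is the order of the libraries' median levels. The difference between groups was 0.38 ± 0.60 log2 units (SE, limma adjusted p = 0.961), and 0.14 ± 0.15 after abundant-gene scaling (adjusted p = 0.795).

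Slc7a5 (chromosome 8, 121881150 to 121907694, minus strand) encodes LAT1, the light chain that imports leucine and other large neutral amino acids. It stood at 1441, 1760, 2119 and 1214 in Het 1 to 4 and 3633, 3778, 889 and 1076 in KO 1 to 4, again high in KO 1 and KO 2 and low in KO 3 and KO 4. After abundant-gene scaling its 8 values lay between 1556 and 2024, and the log2 fold change was 0.01 ± 0.13 (SE, limma adjusted p = 0.980). Slc7a5 had the smallest spread of the members on that scale, an SD of 0.13 log2 units over the 8 libraries, against 0.75 for Slc7a11 and 1.01 for Slc7a3.

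Ratios of reads per kilobase of exon between 2 members of a library are free of the scaling between libraries, and 7 pairs were compared by exact two-sided permutation tests with Benjamini-Hochberg adjustment over the pairs. Transcript of the xCT light chain per transcript of the heavy chain was 0.0172, 0.0150, 0.0144 and 0.0222 in Het 1 to 4 and 0.0373, 0.0223, 0.0302 and 0.0572 in KO 1 to 4. The KO ratios were all above the Het ratios, though KO 2 and Het 4 were almost level. The log2 ratio of Slc7a11 to Slc3a2 differed by 1.02 ± 0.32 (SE), a 2.03-fold difference (exact p = 0.0286, adjusted p = 0.133), which did not pass the adjustment. The difference lay between 0.78 and 1.23 on leaving out each library, and the exact p was 0.0571 without Het 1, Het 2, Het 3, Het 4 or KO 4.

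The ratio of Slc7a11 to Slc7a5 differed by 1.15 ± 0.35 (exact p = 0.0571, adjusted p = 0.133), and KO 2 lay among the Het libraries. Without KO 2 the difference was 1.43 and the exact p = 0.0286. Slc7a5 to Slc3a2, the pair that makes up the leucine exchanger, was between 0.934 and 1.10 in Het and between 0.806 and 1.07 in KO, a log2 difference of -0.13 ± 0.10 (exact p = 0.257, adjusted p = 0.257). KO 1 had the lowest ratio and KO 3 the next. The ratio of Slc7a3 to Slc7a1, which carry the same amino acids, differed by 1.61 ± 0.59 (exact p = 0.0571, adjusted p = 0.133), and KO 2 overlapped with Het 4.

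**Figure D3:**
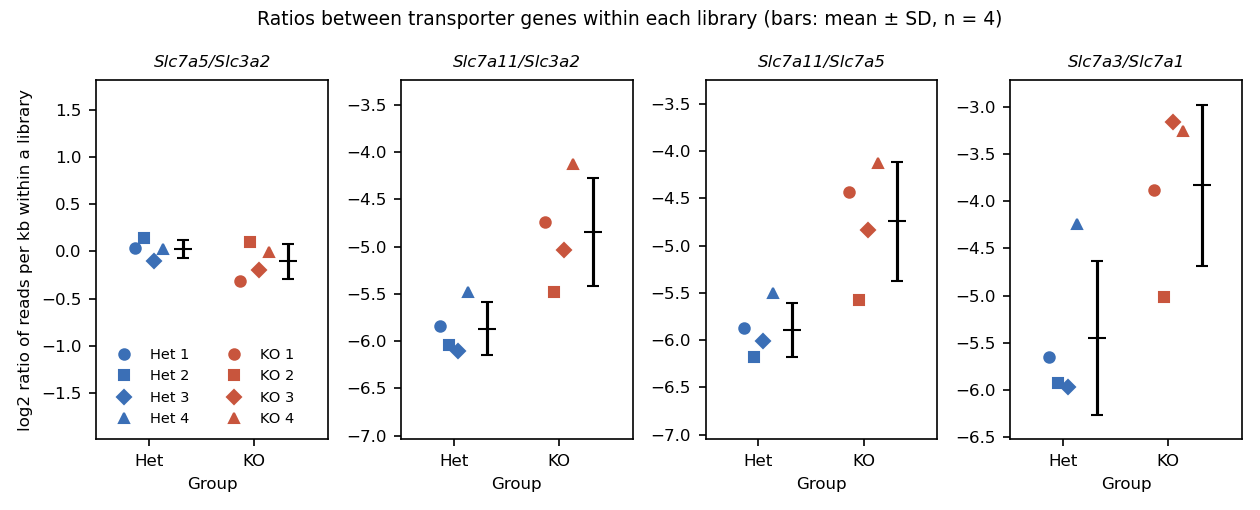
Log2 ratio of reads per kilobase of exon between 2 transporter genes in each library, for 4 of the 7 pairs compared, with mean and SD of 4 libraries per group and the same axis span of log2 units in each panel. Slc7a5 to Slc3a2 lies between -0.31 and 0.14 in all libraries, and Slc7a11 to Slc3a2 is higher in each KO library than in each Het library.

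Slc7a1 (chromosome 5, 148327410 to 148399904, minus strand) encodes CAT1, the main carrier of arginine and lysine in many cells. Its normalized count was 1572, 1613, 2444 and 1352 in Het 1 to 4 and 3661, 3574, 571 and 1041 in KO 1 to 4. KO 3, the library with the most mitochondrial reads, was lowest under both scalings, at 1000 after abundant-gene scaling against 1576 to 2134 elsewhere. The log2 fold change was -0.03 ± 0.60 (SE, limma adjusted p = 0.998) and -0.27 ± 0.20 with these factors (adjusted p = 0.702). Without KO 3 the second value was -0.05.

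Slc38a2 (chromosome 15, 96687392 to 96699730, minus strand) encodes SNAT2, which imports glutamine, alanine and other small neutral amino acids together with sodium. It stood at 969, 874, 1455 and 962 in Het 1 to 4 and 2659, 2600, 675 and 1199 in KO 1 to 4, with the groups overlapping. After abundant-gene scaling all 4 KO values were above the Het mean, from 0.03 log2 units in KO 3 to 0.65 in KO 4. The log2 fold change there was 0.32 ± 0.17 (SE, limma adjusted p = 0.483), against 0.56 ± 0.58 under the deposited scaling (adjusted p = 0.939).

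Slc1a4 and Slc1a5 encode ASCT1 and ASCT2, exchangers of alanine, serine and cysteine, the latter also of glutamine. Slc1a4 (chromosome 11, 20302180 to 20332713, minus strand) stood at 225, 226, 370 and 183 in Het 1 to 4 and 669, 550, 133 and 215 in KO 1 to 4, a log2 fold change of 0.40 ± 0.49 (SE, limma adjusted p = 0.951), and 0.16 ± 0.16 after abundant-gene scaling (adjusted p = 0.786). KO 1 and KO 2 lay above the Het libraries and KO 3 below them. Slc1a5 (chromosome 7, 16781340 to 16798274, plus strand) was at the bottom of the range, with 15.4, 26.3, 20.6 and 27.5 in Het 1 to 4 and 23.3, 16.8, 11.0 and 15.5 in KO 1 to 4. These values rest on 10 to 34 reads per library. Its log2 fold change was -0.42 ± 0.43 (SE, limma adjusted p = 0.939), and -0.65 ± 0.55 after abundant-gene scaling (adjusted p = 0.746). Unlike the abundant members it was not above the Het range in KO 1 and KO 2. The ratio of Slc1a5 to Slc1a4 ran from 0.0523 to 0.142 in Het and from 0.0288 to 0.0778 in KO, and the difference of the log2 ratio was -0.83 ± 0.49 (exact p = 0.171, adjusted p = 0.240). The other pairs with Slc1a5 did not pass either: that with Slc38a2 as numerator differed by 0.98 ± 0.41 (exact p = 0.0857, adjusted p = 0.150) and that with Slc7a5 as denominator by -0.68 ± 0.48 (exact p = 0.229, adjusted p = 0.257).

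Slc6a9 (chromosome 4, 117834506 to 117875198, plus strand) encodes GLYT1, which imports glycine, a further building block of glutathione. It stood at 73.0, 63.8, 65.1 and 42.1 in Het 1 to 4 and 162, 101, 40.8 and 71.4 in KO 1 to 4. KO 1 and KO 2 were above all Het libraries and KO 3 below them. The log2 fold change was 0.47 ± 0.41 (SE, limma adjusted p = 0.918) and 0.23 ± 0.28 after abundant-gene scaling (adjusted p = 0.806). Exons of Ccdc24 and B4galt2 overlap those of Slc6a9 on the opposite strand, and the strand setting of the counting is not stated, so its reads cannot be told apart from theirs with certainty. No gene of the table has exons overlapping those of the other 8 members.

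**Figure D4:**
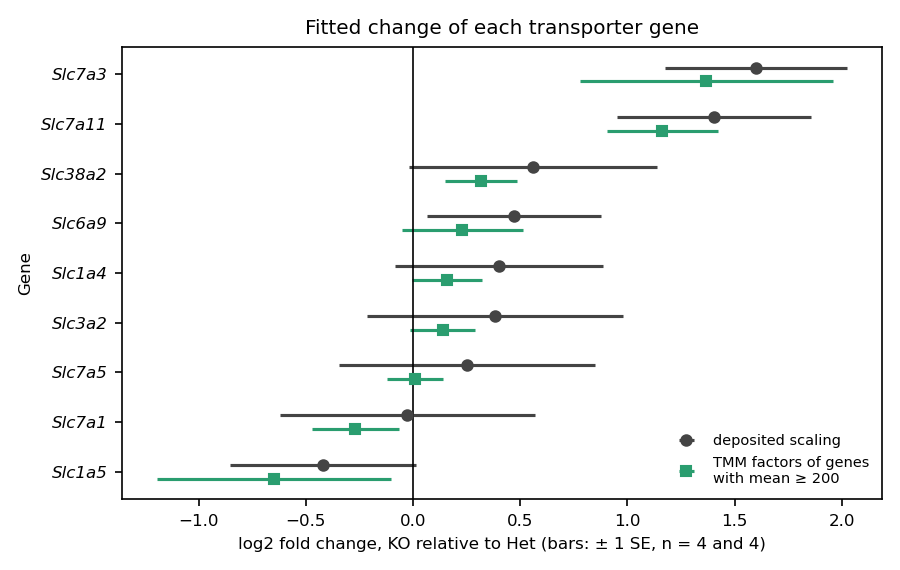
Log2 fold change of each transporter gene, KO relative to Het, with 1 standard error to each side, under the deposited scaling (circles) and after abundant-gene scaling (TMM factors of genes whose mean was 200 or more, squares). Slc7a3 and Slc7a11 lie above 1 under both scalings, and Slc1a5 lies lowest at -0.42 and -0.65.

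Other genes of the ATF4 programme were called in the same direction as Slc7a11. That direction was shared by 97.5% of all called genes under the deposited scaling and by 74.3% after abundant-gene scaling. The list of this programme held 37 genes that are not transporters, namely Atf4 and genes known as its targets. Of these limma called 2 higher and 0 lower under the deposited scaling, beside 0.921% and 0.0233% of all genes. At an unadjusted p under 0.05 the counts were 8 and 0, beside 4.05% and 2.7%. All 37 had a positive log2 fold change, as had 11678 of the 21498 genes tested, and the median was 0.66. On whole reads, with its own scaling, edgeR called 3 higher and 0 lower, beside 0.673% and 0.0343% of all genes. DESeq2, also with its own scaling, called 4 and 0, beside 0.476% and 0.00677%. After abundant-gene scaling limma called 8 higher and 0 lower, beside 1.14% and 0.395% of all genes. There 33 were positive and the median was 0.42, while 7631 of all genes tested were positive and their median was -0.18. Of the 37 genes 32 are abundant genes. Abundant genes had a median of -0.002, and 6.03% of them were called higher when tested alone. On the same scale the list's median relative to Het was 0.63, 0.31, 0.44 and 0.39 in KO 1 to 4, against -0.12 to 0.14 in the Het libraries. Atf4 itself went from 2493 ± 849 to 4651 ± 2624 normalized counts (SD, n = 4 each). This was 0.76 ± 0.63 log2 units (SE, limma adjusted p = 0.914). After abundant-gene scaling it was 0.52 ± 0.15 (adjusted p = 0.123), with all 4 KO libraries above Het, as for 5.47% of all genes tested. The 3 members of smallest p were Atf3, a stress-induced transcription factor (log2 fold change after abundant-gene scaling 2.32 ± 0.21, adjusted p = 0.000549), Trib3, a pseudokinase that restrains ATF4 (1.78 ± 0.20, adjusted p = 0.00136), and Psph, the last enzyme of serine synthesis (1.281 ± 0.23, adjusted p = 0.0208). On that scale Slc7a11 stood at 1.16, near Psph, and Slc7a5, Slc3a2, Slc1a4 and Slc38a2 lay between 0.01 and 0.32.

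Of the 4 eIF2alpha kinases none was called by limma under either scaling, by edgeR or by DESeq2. At an unadjusted p under 0.05 the count was 0 with the deposited scaling and edgeR and 1 higher with DESeq2. After abundant-gene scaling it was 1 higher and 1 lower, beside 7.29% and 6.07% of all genes. Eif2ak2, the double-stranded RNA sensor PKR and itself induced by interferon, stood at 438 to 561 in Het and at 1777, 1268, 308 and 711 in KO 1 to 4. After that scaling its log2 fold change was 0.51 ± 0.21 (SE, limma adjusted p = 0.284). Eif2ak3, the endoplasmic reticulum sensor PERK, was at -0.85 ± 0.21 (adjusted p = 0.0690), with all 4 KO libraries below Het (4.27% of all genes tested).

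Glutathione synthesis and NRF2 target genes, which share Slc7a11 with the ATF4 programme, gave no other call. Slc7a11 is 1 of the 15 genes of that list and was the 1 called after abundant-gene scaling, by edgeR and by DESeq2, and limma called 0 as deposited (unadjusted 2 higher and 0 lower). The list's median was 0.17, and -0.07 after abundant-gene scaling. Hmox1, heme oxygenase, stood at 52.7 to 117 in Het and at 305, 214, 62.9 and 66.1 in KO 1 to 4, high in KO 1 and KO 2 only. After abundant-gene scaling its log2 fold change was 0.59 ± 0.24 (SE, limma adjusted p = 0.282). Keap1, which restrains NRF2, had 0.27 ± 0.14 (adjusted p = 0.456).

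No amino acid transporter outside the stress set was called. Of 44 listed genes 42 were tested by limma, with 0 called under the deposited scaling, as in edgeR and in DESeq2, and each tool also counted 0 at an unadjusted p under 0.05. After abundant-gene scaling limma also called 0. At an unadjusted p under 0.05 the count there was 1 higher and 7 lower, beside 7.29% and 6.07% of all genes. In 6 of the 42 all KO libraries then lay below all Het libraries, as for 4.27% of all genes tested. Under the deposited scaling 10 of the 42 had a positive log2 fold change and the median was -0.28, against 7 of 9 members and a median of 0.40. Of all 21498 genes tested 11678 were positive, with a median of 0.05. After abundant-gene scaling the list's median relative to Het was -1.09, -1.28, 0.45 and 0.42 in KO 1 to 4. Only 12 of the 44 had a mean of at least 200. The share of reads of olfactory and vomeronasal receptor genes ran in the same order, 0.0484% and 0.0342% in the first pair of KO libraries against 0.315% and 0.285% in the second pair, and its part in the values of genes with few reads was not tested. The 3 genes of smallest p, Slc6a7, Slc7a9 and Slc7a15, were all at 30.7 normalized counts or fewer, with log2 fold changes near -0.87 (lowest limma adjusted p = 0.745).

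Markers of other cells that sorting could carry along took small shares of reads next to beta cell markers, but not next to single transporters. Duct cell markers took 0.0187% to 0.0240% of reads in Het and 0.0212% to 0.0290% in KO, and Krt7 held 82.6% to 93.5% of these. Alpha cell markers took 0.0159% to 0.0256% in Het and 0.0158% to 0.0305% in KO. Slc7a11 itself took 0.00102% to 0.00152% in Het and 0.00177% to 0.00443% in KO. Macrophage markers, of a cell type that is known to use Slc7a11 as well, took 0.00361% to 0.00575% of reads in Het and 0.00127% to 0.00300% in KO, over 6 genes with reads in every library, of which Lyz2 and C1qb had a mean under 10. The difference in this sum was carried by C1qa, the most abundant of them, which limma called lower in KO under both scalings. Without C1qa the macrophage markers took 0.00150% to 0.00251% of reads in Het and 0.000768%, 0.000926%, 0.00231% and 0.00219% in KO 1 to 4, so the groups overlapped. Adgre1 was highest in KO 3, at 35.3 normalized counts against 13.7 to 25.0 in Het. Acinar cell markers, 10 genes, took 0.00402% to 0.00711% of reads in KO and 0.00807% to 0.00898% in Het, and Bhlha15 alone held 52.5% to 93.7% of these reads. The other 9 acinar markers took 0.000936% to 0.00237% in Het and were highest in KO 3 and KO 4, at 0.00326% and 0.00292%. The part of other cells in the values of the transporters was not tested. T cell markers lay between 0.000655% and 0.00170% in Het and between 0.000185% and 0.00194% in KO. No marker was at 0 in all libraries. In bulk RNA, fewer cells of a type and less RNA per cell cannot be told apart.

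Among 6691 other abundant genes, those whose level after abundant-gene scaling followed that of Slc7a3 most closely over the 8 libraries were Mettl16 (Pearson r = 0.982), Ash2l (0.981) and Tmod3 (0.977). For Slc3a2, the member of highest level per kilobase, they were Clic4 (0.950), Cast (0.947) and Nars (0.928), the last of which encodes asparaginyl-tRNA synthetase. These correlations describe 8 libraries that differ in depth and in background reads.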

How the data were processed

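Per the labels' protocols, a stranded Takara kit for pico amounts of total RNA was used on YFP-positive cells sorted from dissociated islets. Per the submitters' processing notes, FastQC 0.11.8, UMI-tools, STAR 2.7.3a, HTSeq, DESeq2 1.28.1 and mm10 were used, without their roles. Annotation, strand setting and duplicate removal are not given in the sources used here. The authors deposited a signal per gene, its count over the size factor of the library. Dividing by the smallest value above 0 returned whole reads for 100% of values in each library (tolerance 0.001 of a step). Groups and replicate numbers came from the sample titles.

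Groups were compared with limma 3.58.1 (R 4.3.3) on log2(value + 1) where a gene's mean was 10 or more, with eBayes trend and robust settings, genotype as the only term and Benjamini-Hochberg adjustment over all genes tested. Under the deposited scaling limma gave every gene the spread of the trend (128988 total degrees of freedom), although all genes share the libraries' differences in level. The abundant-gene scaling used edgeR's TMM factors of genes whose mean was 200 or more, with a median of 12.2 degrees of freedom. Recovered counts were tested with edgeR 4.0.16 (quasi-likelihood, filterByExpr, TMM) and DESeq2 1.42.0. Of 42 alternatives 11 were added after the library levels were seen. They were abundant-gene scaling, also with each library or pair of KO libraries left out. Leaving out a library kept the genes and factors of the full set. Scripts were tested on simulated counts.

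The members, gene lists, pairs and alternatives were chosen with earlier results of these data known. Named list genes are Atf4 and the 3 of smallest limma p in each list, and like genes the 3 of highest Pearson r for the member of smallest p and for that of highest level per kilobase. Exon lengths and coordinates are those of GENCODE M21 (mm10, counted from 1), where 42980 symbols matched. Exon lengths are unions over all annotated transcripts, so levels per kilobase depend on that annotation. Of the listed genes 1 symbol, Samtor, was not matched.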

Additional observations from a re-analysis of the deposited data

Results flagged for a closer look

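The normalized count of Slc38a2 in Het 3, 1455, lay far from the other 3 Het libraries, at 874 to 969. Of 18 groups of 4 values (9 genes in 2 groups) this was the 1 with such a gap, and chance gives it in about 1 group in 20. Het 3 was also the Het library with the highest median level, 0.22 log2 units above the average library, and after abundant-gene scaling it stood at 1271, inside the Het range of 892 to 1355.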

How the results depend on the processing

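The count of members called higher was 1 in the main test. It was 0 with a mean of at least 50 (which leaves out Slc7a3 and Slc1a5), with TMM scaling, without trend or robust settings, against KO 3 and KO 4 only, and for KO 1 and KO 2 only among abundant genes. It was 8 against KO 1 and KO 2 only and 8 with libraries of both sexes only, where the median of all genes was itself 0.56 and 0.55 and 45.5% and 39.4% of all genes were called higher. Leaving out each library gave 0 to 2 under the deposited scaling and 0 to 1 after abundant-gene scaling and among abundant genes alone. The count called lower was 0 throughout except 1, Slc7a1 (-1.14), against KO 3 and KO 4 only. The replicate block also called 0 higher (Slc7a3 adjusted p = 0.0503) and moved the count over all genes from 198 to 182. That count was 127 without trend or robust settings, 129 without Het 1, 105 without KO 1, 337 without KO 3, and 404 higher with 284 lower among abundant genes, where 58.7% of calls were higher. Same-numbered Het and KO libraries had correlated deviations of 0.22, -0.05, 0.13 and 0.28, so the numbers were not taken to pair the libraries, and Het 2 and Het 3 did not correlate best with their own number. Slc7a11 was positive in 42 of 42 alternatives (0.71 to 2.10) and called in 15, and Slc7a3 was positive in 30 of 30 (1.09 to 2.09) and called in 9. The 15 include calls among abundant genes alone, a gene set that Slc7a11 entered only through its KO values. Signs turned in at least 1 alternative for 6 of the 9 members, and the cause was not tested. Against KO 3 and KO 4 only, Slc7a5 was -0.71 (-0.16 after abundant-gene scaling), Slc3a2 -0.58 (-0.032), Slc38a2 -0.21, Slc1a4 -0.52 and Slc6a9 -0.14. Slc7a1 was 0.34 by DESeq2, 1.09 against KO 1 and KO 2 only (0.051 after abundant-gene scaling) and 1.05 with libraries of both sexes only. On leaving out each library Slc7a5 ran from -0.077 to 0.62 (-0.050 to 0.076 after abundant-gene scaling, with -0.041 without KO 2 and -0.0089 without Het 4) and Slc7a1 from -0.40 to 0.49. The difference in the log2 ratio of Slc7a11 to Slc3a2 ran from 0.78 to 1.23 and that of Slc7a11 to Slc7a5 from 0.94 to 1.43. Slc7a3 and Slc1a5 rest on 6 to 90 and 10 to 34 reads per library, which limits their precision.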

Other observations

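Genes through which mTORC1 senses amino acids showed no call. Of 20 tested members limma called 0 under both scalings, as did edgeR and DESeq2. At an unadjusted p under 0.05 limma counted 0 under the deposited scaling. After abundant-gene scaling it counted 3 higher and 3 lower, beside 7.29% and 6.07% of all genes. At that p edgeR and DESeq2 each counted 3 higher and 0 lower, where 1107 of 23320 and 1620 of 44343 genes were higher. The median was 0.28 and, after abundant-gene scaling, 0.04. Sesn2, a leucine sensor and ATF4 target, stood at 486 to 915 in Het and at 2555, 1802, 536 and 681 in KO 1 to 4. After abundant-gene scaling its log2 fold change was 0.69 ± 0.18 (SE, limma adjusted p = 0.0872), with all 4 KO libraries above Het, as for 5.47% of all genes tested. Lamtor5 and Nprl2, of the lysosomal sensing complexes, had 0.56 ± 0.25 and 0.51 ± 0.23 (adjusted p = 0.356 and 0.362).

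Immediate early and heat shock genes, which tissue dissociation induces, had a median of 0.83 over 18 genes, and after abundant-gene scaling of 0.30, 0.17, 0.48 and 1.26 in KO 1 to 4. Under the deposited scaling limma called 0, beside 0.921% of all genes higher. At an unadjusted p under 0.05 it counted 4 higher, beside 4.05%. On whole reads, with its own scaling, edgeR called 0 and counted 9 higher at that p, beside 1107 of 23320 genes. DESeq2, also with its own scaling, called 1 higher and counted 10 higher, beside 1620 of 44343 genes. After abundant-gene scaling limma called 1, Nr4a1, at 1.02 ± 0.19 (SE, adjusted p = 0.0244), beside 1.14% of all genes higher. Egr1 and Egr2 had 1.18 ± 0.38 and 0.86 ± 0.48 there (adjusted p = 0.172 and 0.524). KO 4 was the library with the highest median of these genes and, with KO 1, the highest in Slc7a11, and the part of dissociation in the values of the transporters was not tested.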
